A study of Mus musculus with 2 samples.

Results

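RNA-seq of the XY gonadal somatic cells was used here to compare inhibition of MEK1/2 with inhibition of the FGF receptors after 72 h of culture. The 8 libraries of the comparison, out of 39 labelled somatic libraries, were chosen by their labels alone and comprised 4 libraries cultured with the MEK1/2 inhibitor PD0325901 (mirdametinib, MEKi) and 4 cultured with the FGFR inhibitor BGJ398 (infigratinib, FGFRi). Each inhibitor was used at 500 nM, and all 8 libraries belonged to the same set of libraries as the XY DMSO controls of 72 h. The gonads came from wild-type E12.5 embryos carrying an Oct4-eGFP transgene, from crosses of 129T2svJ males with Swiss females. Gonads with their mesonephros were cultured on membranes, the mesonephros was removed, several gonads were pooled for each sample, and the somatic cells were sorted as GFP-negative cells. The transgene removed germ cells only, so all somatic cell types of the gonad were exposed to the inhibitors and were sequenced together. Reference groups were 4 XY DMSO and 4 XX DMSO libraries at 72 h, and 3 XY MEKi (500 nM) and 4 XY DMSO libraries at 24 h, which belonged to another library set.

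FGF receptors are tyrosine kinases at the cell surface, and one of their main outputs is the RAS, RAF, MEK and ERK kinase cascade. Other receptors, including those for VEGF, PDGF, EGF, KIT ligand and GDNF, also signal through MEK1/2, and FGF receptors also signal through PI3K and PLCγ. MEKi therefore acts on the ERK arm of many receptors, and FGFRi acts on all arms of one receptor family. In the foetal testis, FGF9 from Sertoli cells takes part in testis determination, and the somatic compartment also holds interstitial progenitors, foetal Leydig cells, endothelial cells, pericytes and macrophages.

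Total counts were 1902066 to 3167747 for MEKi, 1754343 to 2763610 for FGFRi and 1999334 to 2905471 for XY DMSO at 72 h. In the 12 XY libraries of 72 h, *Xist* was at 0 to 5.2 CPM and *Ddx3y* at 61.7 to 109 CPM, against 678 to 1060 and 0.297 to 1.18 CPM in the XX DMSO libraries, which matched the labels. Among the XY libraries *Xist* was itself lower with MEKi (0.949, 0.765, 0.313 and 0.537 CPM with MEKi and 5.2, 2.87, 5.03 and 2.93 CPM with FGFRi, log2 fold change -2.59 ± 0.55, FDR = 0.00091). Over the 500 most variable genes, the first principal component held 50.9% of the variance and put the MEKi libraries at 11.9 to 17.1, the FGFRi libraries at -14.8 to -6.25 and the XY DMSO libraries at -10.1 to 0.634. FGFRi M5 stood apart from the other FGFRi libraries at -14.8 on this component and at -11.3 on the second, which held 14.5% of the variance. Its share in each result was followed by fitting without it, an alternative planned for every replicate.

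MEKi and FGFRi libraries differed in 981 of 15390 genes tested at an FDR below 0.05 and a fold change of at least 1.5, which is the meaning of a called gene throughout. With MEKi, 254 genes (1.65%) were higher and 727 (4.72%) were lower than with FGFRi. These 2 shares are the background for every count of called list members given for this comparison. The changes were unequal in size as well as in number, since 8 of the higher and 116 of the lower genes differed by 4-fold or more, with medians of 0.83 and -1.03 on the log2 scale. The 4 MEKi and 4 FGFRi libraries did not overlap for 1038 genes (6.74%) that were higher and 1210 genes (7.86%) that were lower with MEKi, whether called or not. Without FGFRi M5, 599 genes were called, 150 higher and 449 lower, of which 569 were among the 981. Against the same 4 XY DMSO libraries, MEKi gave 345 higher (2.24%) and 647 lower genes (4.2%), while FGFRi gave 137 higher (0.89%) and 139 lower genes (0.903%). For FGFRi against DMSO the total of 276 depended on single libraries. It was 90 without FGFRi M5, 126 without DMSO M2, 164 without DMSO M6 and 175 without FGFRi M6. Voom with treat, the authors' own test, called 0 genes for FGFRi against DMSO. At 24 h, MEKi against DMSO gave 147 higher (0.955%) and 226 lower genes (1.47%), a total of 373 that fell to 238 without MEKi M1.

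**Figure D1:**
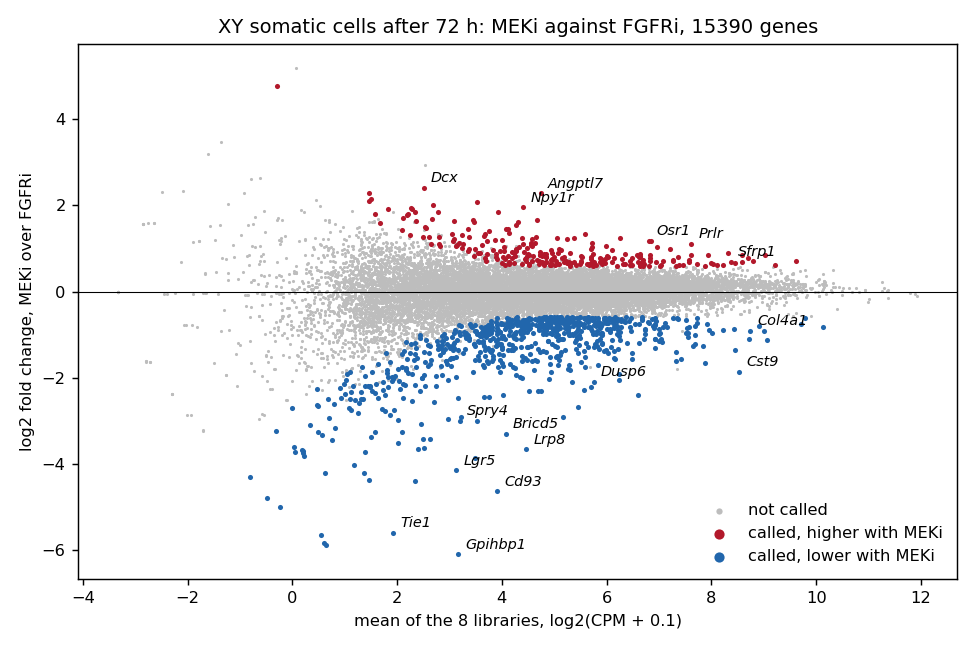
Log2 fold change (MEKi over FGFRi, y axis) against log2(CPM + 0.1) averaged over the 8 libraries (x axis) of the 15390 genes tested at 72 h, with the 254 genes called higher and the 727 called lower in colour. The lower genes extend further from 0 than the higher genes, and the endothelial genes *Gpihbp1*, *Cd93* and *Tie1* are among the most extreme.

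Genes that report ERK activity were lower with MEKi than with FGFRi. ERK induces its own negative regulators, namely the dual-specificity phosphatases (DUSP), Sprouty and SPRED proteins, together with the ETS factors ETV4 and ETV5, and these genes are commonly read as outputs of the pathway. Of 20 such genes 9 were called lower with MEKi than with FGFRi, and the other 11 were not called. The median log2 fold change of the list was -0.72, against 0.01 over all genes tested. The called genes were *Dusp6*, *Etv5*, *Spry4*, *Etv4*, *Dusp4*, *Spry1*, *Dusp5*, *Spred2* and *Dusp7*. DESeq2 called 10 lower, and voom with treat, the authors' own test, called 3 lower. Summed over the list, the level was 327 to 397 CPM with MEKi, 592 to 638 CPM with FGFRi and 726 to 766 CPM in XY DMSO, so the 3 groups did not overlap. Against DMSO, MEKi called 14 members lower (median -0.94) and FGFRi 3 (median -0.14). Without FGFRi M5, 6 members were called lower (median -0.7).

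Promoters are shown for the called ERK feedback and endothelial genes with the lowest FDR that had a RefSeq window, since ETS factors are substrates of ERK and bind the core GGAA. The 250 bases before the start are given 5′ to 3′ on the strand of the gene, with GGAA, or TTCC where the core lies on the other strand, in capitals. Positions are on GRCm38.p6, at chr10:99262981-99263230 (+) for *Dusp6*, chr16:22439571-22439820 (-) for *Etv5*, chr4:118489850-118490099 (-) for *Tie1* and chr7:45627287-45627536 (+) for *Rasip1*.
Dusp6: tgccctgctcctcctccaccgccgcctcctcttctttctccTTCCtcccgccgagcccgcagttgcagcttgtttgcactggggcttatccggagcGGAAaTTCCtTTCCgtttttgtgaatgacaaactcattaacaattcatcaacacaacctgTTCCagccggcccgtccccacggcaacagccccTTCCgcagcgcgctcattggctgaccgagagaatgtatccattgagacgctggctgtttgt
Etv5: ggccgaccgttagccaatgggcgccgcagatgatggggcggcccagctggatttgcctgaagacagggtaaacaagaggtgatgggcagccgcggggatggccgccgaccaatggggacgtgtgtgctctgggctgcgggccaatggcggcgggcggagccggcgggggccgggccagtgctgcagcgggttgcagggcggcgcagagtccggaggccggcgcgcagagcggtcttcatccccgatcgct
Tie1: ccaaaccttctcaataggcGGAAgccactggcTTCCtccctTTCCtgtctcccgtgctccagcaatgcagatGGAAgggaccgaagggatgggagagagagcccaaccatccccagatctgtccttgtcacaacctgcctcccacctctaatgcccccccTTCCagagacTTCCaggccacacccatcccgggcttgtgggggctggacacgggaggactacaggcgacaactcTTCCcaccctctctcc
Rasip1: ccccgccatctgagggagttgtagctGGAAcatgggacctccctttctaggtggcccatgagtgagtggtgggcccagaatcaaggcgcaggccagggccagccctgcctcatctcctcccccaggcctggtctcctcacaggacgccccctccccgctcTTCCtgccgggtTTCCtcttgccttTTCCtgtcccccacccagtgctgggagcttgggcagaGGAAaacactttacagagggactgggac
The *Dusp6* window held 6 matches on either strand, *Tie1* 7, *Rasip1* 5 and *Etv5* 0. GGAA was found in 93.4% of 32851 windows of this length, with a median of 3 matches. Of the 23 called members of the ERK feedback and pan-endothelial lists, 12 had a window, 9 of these held GGAA, 5 held GGAAGT (19.7% of all windows) and 0 held the AP-1 site TGACTCA (4.46% of all windows). GGAAGT contains the GGAA core, and both strands were searched for each motif. These motifs were chosen after the sequences were seen.

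*Dusp6*, the ERK phosphatase at chr10:99086564-99103361 (GRCm39, the build of all gene positions given), was at 10.4, 26.4, 24.1 and 19.9 CPM with MEKi and 76.8, 87.3, 102 and 84.9 CPM with FGFRi, in the order M2, M3, M4 and M5 for MEKi and M2, M4, M5 and M6 for FGFRi. All MEKi libraries lay below all FGFRi libraries, which in turn lay within the range of XY DMSO (75.8 to 120 CPM). The log2 fold change of MEKi over FGFRi was -2.09 ± 0.21 (FDR = 5.63e-10), with the SE from the edgeR model over 4 and 4 libraries, a 4.26-fold lower level. *Spry4*, a Sprouty inhibitor of the RAS pathway, was at 1.42, 1.53, 2.5 and 2.15 CPM with MEKi and 25.4, 12.7, 13.7 and 13.4 CPM with FGFRi (log2 fold change -3 ± 0.37, FDR = 5.59e-08), so the lowest FGFRi library exceeded the highest MEKi library by several fold. *Etv5* at chr16:22200052-22259662 was at 9.02, 9.56, 9.39 and 4.3 CPM with MEKi and 29.4, 31.6, 38.1 and 31.4 CPM with FGFRi (log2 fold change -1.98 ± 0.23, FDR = 1.44e-08). *Etv4* was at 0.949, 0.765, 0.939 and 1.07 CPM with MEKi and 2.89, 4.1, 6.11 and 5.44 CPM with FGFRi (log2 fold change -2.3 ± 0.51, FDR = 0.00139), without overlap but at low counts. Against XY DMSO, the log2 fold changes of MEKi were -2.16 (FDR = 2.57e-10) for *Dusp6*, -3.33 (FDR = 2.26e-09) for *Spry4*, -2.08 (FDR = 3.47e-09) for *Etv5* and -2.19 (FDR = 0.00341) for *Etv4*. Those of FGFRi were -0.07 (FDR = 0.922), -0.32 (FDR = 0.64), -0.11 (FDR = 0.869) and 0.11 (FDR = 0.94), none of them called.

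The immediate-early genes, transcription factor genes that are switched on within minutes of a stimulus and partly through ERK, moved in the same direction for part of the list. Of 17 tested members 5 were called lower (median -0.55), namely *Egr2*, *Egr3*, *Maff*, *Atf3* and *Nr4a1*, and the other 12 were not called. The number of lower calls rose to 8 without MEKi M2. With all libraries, DESeq2 called 5 lower and voom with treat 0. *Egr2* was at 19, 15.7, 15.7 and 17.2 CPM with MEKi and 44.5, 47.5, 47.8 and 52.7 CPM with FGFRi (log2 fold change -1.52 ± 0.26, FDR = 3.29e-05), with each FGFRi library above each MEKi library. *Egr3* was at 8.07, 6.88, 4.07 and 6.45 CPM with MEKi and 21.4, 22.5, 10.8 and 25.5 CPM with FGFRi (log2 fold change -1.67 ± 0.33, FDR = 0.00034), likewise without overlap. The highly expressed *Egr1* and *Fos* were not called. *Egr1* was at 698, 519, 656 and 575 CPM with MEKi and 983, 944, 734 and 941 CPM with FGFRi (log2 fold change -0.56 ± 0.14, FDR = 0.00553), below the fold threshold. *Fos* was at 741, 561, 1080 and 676 CPM with MEKi and 1060, 1300, 1100 and 1080 CPM with FGFRi (log2 fold change -0.57 ± 0.2, FDR = 0.058), with overlap through MEKi M4. *Egr1* was called without FGFRi M5 (log2 fold change -0.64, FDR = 0.00319).

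**Figure D2:**
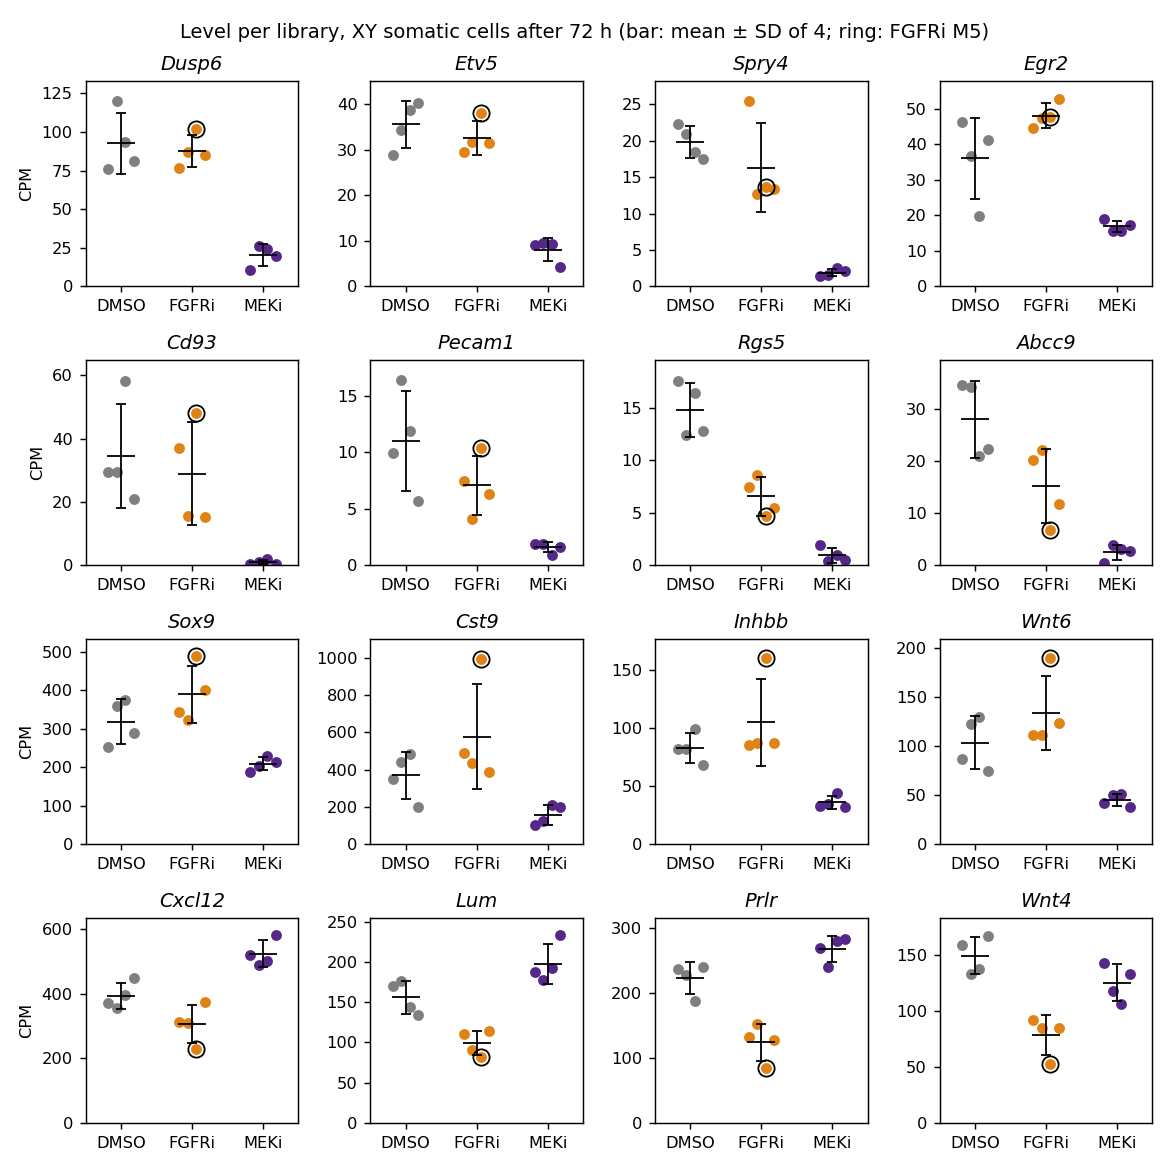
CPM of single libraries for 16 genes in XY DMSO, FGFRi and MEKi at 72 h, one point per library with the mean and SD of 4, and a ring around FGFRi M5. *Dusp6*, *Etv5* and *Spry4* are lower in all MEKi libraries than in all FGFRi and DMSO libraries, and FGFRi M5 is the highest library for *Cst9* at 995 CPM.

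Among 11 tested FGF ligands and receptors 1 was called, *Fgfr4*, which was higher with MEKi. Over all genes tested, 1.65% were called higher. *Fgfr4* was at 6.17, 4.97, 2.82 and 8.06 CPM with MEKi and 1.73, 0.41, 2.52 and 0.836 CPM with FGFRi (log2 fold change 1.91 ± 0.62, FDR = 0.0408), without overlap but at low counts. It was called in only 2 of the 8 fits that left out 1 library, those without FGFRi M5 and without MEKi M4 (log2 fold change 1.61 to 2.46 over the 8). *Fgf9*, the Sertoli cell FGF of the early testis, was at 28.5, 15.3, 17.2 and 20.9 CPM with MEKi and 16.2, 19.7, 22.6 and 32.6 CPM with FGFRi (log2 fold change -0.18 ± 0.24, FDR = 0.701). *Fgfr2* was at 21.4, 19.5, 16.9 and 26.3 CPM with MEKi and 15.6, 23.8, 17.2 and 19.2 CPM with FGFRi (log2 fold change 0.12 ± 0.24, FDR = 0.821), and the groups overlapped for both genes.

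Of 24 other growth factor ligands and receptors, 5 were called lower and 1 higher with MEKi. *Gdnf*, the ligand of the RET receptor and a Sertoli cell product, was at 7.12, 6.5, 6.89 and 6.45 CPM with MEKi and 17.3, 22.5, 31.6 and 26.4 CPM with FGFRi (log2 fold change -1.87 ± 0.27, FDR = 1.37e-06), with MEKi libraries close together and well below all FGFRi libraries. *Kitl*, the ligand of KIT on germ cells, was at 46.5, 54.7, 55.4 and 52.1 CPM with MEKi and 94.7, 102, 116 and 89.9 CPM with FGFRi (log2 fold change -0.95 ± 0.13, FDR = 2.92e-07), again without overlap. *Kitl* lay between the 2 inhibitors in XY DMSO (60.2 to 81.1 CPM), with log2 fold changes against DMSO of -0.5 (FDR = 0.00744) for MEKi and 0.45 (FDR = 0.0359) for FGFRi, neither of them 1.5-fold. The neuregulin receptors *Erbb3* and *Erbb4* and the endothelial ligand *Pdgfb* were the other lower genes. *Erbb3* was at 9.02, 5.74, 11 and 4.3 CPM with MEKi and 28.3, 20.5, 29.8 and 18.8 CPM with FGFRi (log2 fold change -1.65 ± 0.31, FDR = 0.000145). *Pdgfd*, a ligand of PDGFRB, was the higher gene, at 25.6, 30.2, 34.8 and 37.1 CPM with MEKi and 16.2, 12.3, 14 and 16.3 CPM with FGFRi (log2 fold change 1.12 ± 0.2, FDR = 6.79e-05). Of the 2 PDGF receptors, *Pdgfra* did not pass (log2 fold change 0.37 ± 0.14, FDR = 0.0925). *Pdgfrb* was below the fold threshold at 54.6, 54.3, 58.5 and 60.2 CPM with MEKi and 92.4, 116, 45.6 and 81.1 CPM with FGFRi (log2 fold change -0.55 ± 0.18, FDR = 0.0392). It was called without FGFRi M5 (log2 fold change -0.77, FDR = 0.00179).

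Endothelial genes were among the largest decreases. In bulk samples, fewer cells of a type and less RNA per cell cannot be told apart, which applies to each cell type list. Of 22 pan-endothelial genes, 13 were called lower and 1 higher with MEKi than with FGFRi, with a median log2 fold change of -2.17. Without FGFRi M5 the numbers were 10 lower and 1 higher (median -1.84). With all libraries, DESeq2 called 13 lower and voom with treat 3. The lower genes were *Cd93*, *Gpihbp1*, *Tie1*, *Mmrn2*, *Rasip1*, *Esam*, *Pecam1*, *Flt1*, *Ecscr*, *Myct1*, *Cdh5*, *Erg* and *Plvap*, and the higher gene was *Cd34*. Against XY DMSO, MEKi gave 17 lower by edgeR (median -2.72), 17 by DESeq2 and 9 by voom with treat. FGFRi gave 0 calls by edgeR, DESeq2 or voom with treat (median -0.48), with 4 members lower and 0 higher at an unadjusted p below 0.05. Summed, the list was at 141 to 165 CPM with MEKi, 190 to 345 CPM with FGFRi and 220 to 383 CPM in XY DMSO. *Cd34*, the higher gene, made up a mean of 72 of 149 CPM with MEKi and 45.1 of 246 CPM with FGFRi.

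*Gpihbp1*, which anchors lipoprotein lipase to capillary endothelium and lies at chr15:75468474-75471331, was at 0, 0.382, 0 and 0.537 CPM with MEKi and 18.5, 10.7, 30.5 and 10 CPM with FGFRi. This was 2 counts over the 4 MEKi libraries against 167 over the 4 FGFRi libraries, a ratio of 87.3 (95% exact interval 23.8 to 726, for counting error only; FDR = 1.97e-09). *Cd93*, a C-type lectin-like receptor at chr2:148270798-148285546, was at 0.475, 1.15, 1.88 and 0.537 CPM with MEKi and 37, 15.6, 48.1 and 15.1 CPM with FGFRi (log2 fold change -4.63 ± 0.49, FDR = 1.26e-09). *Tie1*, an orphan receptor of the angiopoietin system, was at 0, 0, 0.313 and 0 CPM with MEKi and 7.5, 6.56, 8.62 and 6.69 CPM with FGFRi, a single count over the MEKi libraries against 69 (ratio 72.1, interval 12.52 to 2890). *Myct1* had no count in any MEKi library and 23 over the FGFRi libraries. This was 8.01-fold a floor of 3 counts over the 4 MEKi libraries, a ratio that leaves out the counting error of the 23. With *Myct1* at this ratio the median of the list remained -2.17.

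The defining endothelial genes *Pecam1* and *Cdh5* were lower by less. *Pecam1*, an adhesion molecule of endothelial junctions, was at 1.9, 1.91, 0.939 and 1.61 CPM with MEKi and 7.5, 4.1, 10.4 and 6.27 CPM with FGFRi (log2 fold change -2.17 ± 0.42, FDR = 0.00023). *Cdh5*, VE-cadherin, was at 7.59, 9.56, 7.83 and 12.3 CPM with MEKi and 21.4, 15.2, 30.5 and 18 CPM with FGFRi (log2 fold change -1.22 ± 0.31, FDR = 0.00558). This call was lost without FGFRi M5 (log2 fold change -0.97, FDR = 0.0758). *Cd34*, which is expressed by stromal as well as endothelial cells, was at 65, 60.4, 84.5 and 77.9 CPM with MEKi and 51.4, 42.6, 49.6 and 36.8 CPM with FGFRi, the reverse order without overlap (log2 fold change 0.68 ± 0.17, FDR = 0.00484). The levels with FGFRi were near those of XY DMSO for the named members, for example 20.8 to 58.3 CPM in XY DMSO for *Cd93* and 15.6 to 32.4 CPM in XY DMSO for *Cdh5*.

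Of 15 tested arterial genes, a list that holds members of the Notch pathway, which specifies arteries, 6 were called lower (median -0.91) and 9 were not called. DESeq2 called 7 lower and voom with treat 0. *Notch1* was at 22.3, 21, 22.2 and 22 CPM with MEKi and 57.2, 41.8, 47.1 and 33 CPM with FGFRi (log2 fold change -1.02 ± 0.17, FDR = 1.21e-05), with no overlap and a narrow MEKi range. The Notch receptor gene *Notch3*, on the pericyte list, was not called (log2 fold change 0.31 ± 0.19, FDR = 0.356). *Sox7*, an endothelial transcription factor, had 2 counts over the MEKi and 44 over the FGFRi libraries (ratio 23, interval 6 to 196), and the Notch ligand *Dll4* had 1 and 26 (ratio 27.2, interval 4.46 to 1110). The gap junction gene *Gja5* had 2 and 15 counts (ratio 7.84, interval 1.82 to 70.6, FDR = 0.0448) and was called in only 2 of the 8 fits that left out 1 library, those without FGFRi M6 and without MEKi M3. The others were *Unc5b* and *Jag1*. The list members *Hey1* and *Hey2* were not called. *Nrarp*, a feedback target of Notch outside the list, was at 1.42, 1.15, 1.25 and 0 CPM with MEKi and 11, 6.56, 19.8 and 7.53 CPM with FGFRi (log2 fold change -3.42 ± 0.48, FDR = 8.19e-07). It was picked as one of the largest decreases without overlap in these same libraries, so it adds no separate evidence on the list. Against XY DMSO, MEKi called 8 arterial genes lower and FGFRi 1.

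Pericytes, the mural cells of capillaries, showed a mixed picture. Of 9 tested pericyte genes, 4 were called lower and 1 higher (median -0.87). *Abcc9*, the regulatory subunit of a potassium channel, was at 0.475, 3.82, 3.13 and 2.69 CPM with MEKi and 20.2, 22.1, 6.83 and 11.7 CPM with FGFRi (log2 fold change -2.48 ± 0.39, FDR = 8.97e-06). *Rgs5*, a regulator of G-protein signalling, was at 1.9, 0.382, 0.939 and 0.537 CPM with MEKi and 7.5, 8.61, 4.67 and 5.44 CPM with FGFRi (log2 fold change -2.74 ± 0.47, FDR = 3.39e-05). *Mcam*, which endothelial cells express too, was at 7.12, 16.1, 9.71 and 8.06 CPM with MEKi and 30.6, 22.9, 32.7 and 21.3 CPM with FGFRi (log2 fold change -1.36 ± 0.26, FDR = 0.000157). *Ndufa4l2* had no count in the 4 MEKi libraries and 27 over the FGFRi libraries, 9.41-fold the floor of 3 counts, without the counting error of the 27. By edgeR both inhibitors differed from XY DMSO here, with 7 members called lower and 1 higher for MEKi (median -1.37) and 4 lower for FGFRi (median -0.76). Voom with treat called 4 lower and 1 higher for MEKi and 0 for FGFRi.

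*Ren1*, renin, was the pericyte-list gene that was higher, at 59.8, 34, 36 and 24.2 CPM with MEKi and 17.9, 10.2, 13.7 and 7.95 CPM with FGFRi (log2 fold change 1.65 ± 0.33, FDR = 0.0003), against 2.49 to 7.97 CPM in XY DMSO. Contractile genes did not follow the pericyte genes. Of 17 smooth muscle and contractile genes, 2 were called higher (*Myh8* and *Tnnt2*) and 1 lower (*Tagln*), with a median of 0.18. The shares among all genes tested were 1.65% higher and 4.72% lower. *Tagln*, transgelin, was at 49.8, 53.5, 57.3 and 52.1 CPM with MEKi and 93, 86, 83 and 109 CPM with FGFRi (log2 fold change -0.8 ± 0.17, FDR = 0.00129), and its XY DMSO range of 37.2 to 47.9 CPM overlapped neither inhibitor. *Myh8*, a perinatal myosin heavy chain, was at 30.9, 29.4, 32.9 and 20.9 CPM with MEKi and 5.77, 18.9, 7.18 and 7.11 CPM with FGFRi (log2 fold change 1.54 ± 0.3, FDR = 0.000316), and its XX DMSO level was 30.6 to 40.2 CPM. *Acta2*, smooth muscle actin, was at 791, 753, 830 and 829 CPM with MEKi and 684, 713, 499 and 751 CPM with FGFRi and did not pass (log2 fold change 0.28 ± 0.12, FDR = 0.141). Against XY DMSO, 6 members were called higher for MEKi (median 1) and 7 for FGFRi (median 0.72). Voom with treat called 3 higher for MEKi and 0 for FGFRi.

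Blood cell genes separated by lineage. The macrophage list had 0 of 15 tested members called between the inhibitors by edgeR, DESeq2 or voom with treat, with 4 higher and 0 lower at an unadjusted p below 0.05 (median 0.24). Against XY DMSO, edgeR called 9 members lower for MEKi (median -1.76) and 10 for FGFRi (median -2.12). DESeq2 called 9 and 11 lower, and voom with treat called 0 for either inhibitor. The summed level was 78 to 131 CPM with MEKi, 74 to 99.1 CPM with FGFRi and 110 to 378 CPM in XY DMSO. MEKi thus overlapped XY DMSO. Of the defining genes, *Csf1r*, a growth factor receptor, was at 4.75, 4.97, 4.7 and 4.3 CPM with MEKi and 3.46, 8.61, 2.52 and 1.25 CPM with FGFRi, against 8.53 to 28.4 CPM in XY DMSO. The complement gene *C1qa* was at 4.75, 2.68, 2.82 and 0.537 CPM with MEKi and 1.16, 1.23, 1.8 and 0.418 CPM with FGFRi, against 3.79 to 15.9 CPM in XY DMSO. *Adgre1*, *Fcgr1*, *Fcrls*, *Spi1* and *Trem2* were too low to be tested.

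Granulocyte genes were lower with MEKi in 5 of 6 tested members (*Mpo*, *Elane*, *S100a8*, *S100a9* and *Prtn3*, median -2.18), also without FGFRi M5. DESeq2 called 3 lower and voom with treat 2, and neither called *S100a8* or *S100a9*. *Mpo*, myeloperoxidase, was at 4.75, 2.68, 7.83 and 4.83 CPM with MEKi and 23.1, 23.8, 31.6 and 30.5 CPM with FGFRi (log2 fold change -2.4 ± 0.44, FDR = 9.45e-05). *Elane*, neutrophil elastase, was at 0.475, 1.15, 0.313 and 1.07 CPM with MEKi and 7.5, 11.1, 7.9 and 12.1 CPM with FGFRi (log2 fold change -3.65 ± 0.72, FDR = 0.000303). *S100a8*, a calcium-binding protein of neutrophils, was at 33.7, 23.7, 24.4 and 36 CPM with MEKi and 152, 128, 52.1 and 154 CPM with FGFRi (log2 fold change -2.05 ± 0.45, FDR = 0.00124), with FGFRi M5 the lowest FGFRi library. The summed level was 39 to 57.4 CPM with MEKi, 125 to 269 CPM with FGFRi and 33.2 to 166 CPM in XY DMSO, so DMSO overlapped both. Among 12 tested erythroid genes, beside 4.72% of all genes called lower, only the alpha-globins *Hba-a1* and *Hba-a2* were called, both lower. Their reads cannot be fully told apart, and *Hba-a2* was at 27.1, 97.9, 95.8 and 123 CPM with MEKi and 328, 124, 340 and 233 CPM with FGFRi (log2 fold change -1.57 ± 0.36, FDR = 0.00203). Without FGFRi M4, 4 erythroid genes were called lower. *Hbb-y*, embryonic beta-globin, was at 15.2, 44.4, 74.5 and 161 CPM with MEKi and 419, 144, 432 and 10.4 CPM with FGFRi and was widely spread in both groups (log2 fold change -1.79 ± 0.83, FDR = 0.178).

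**Figure D3:**
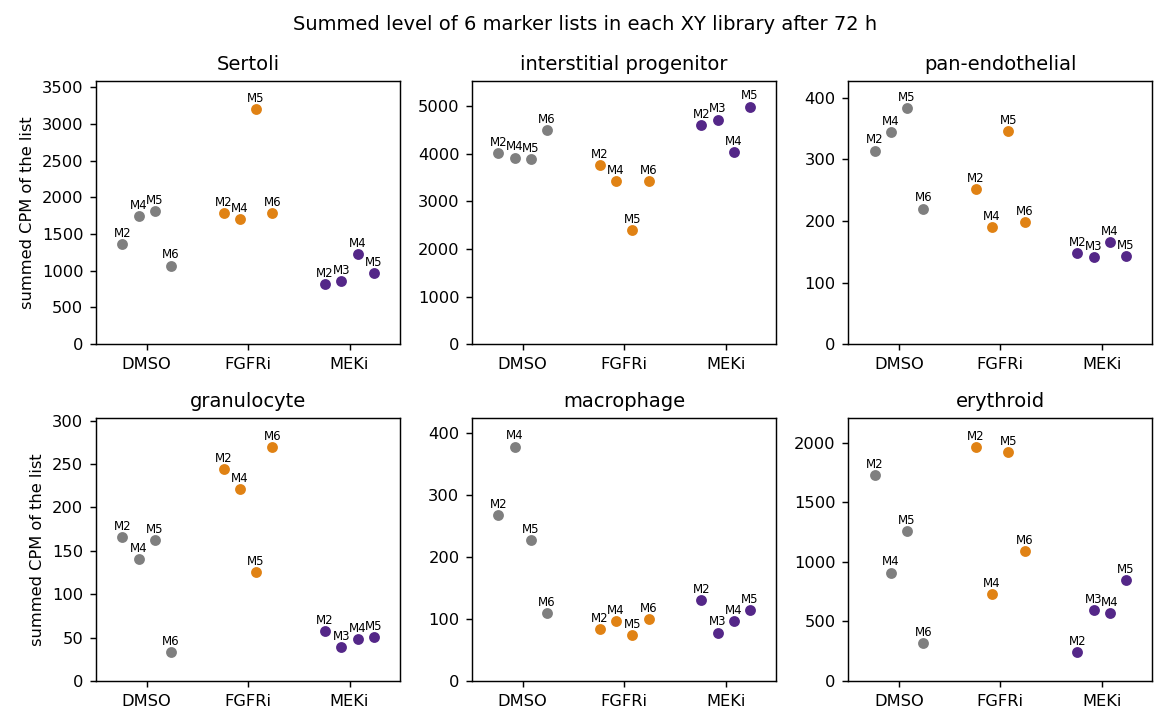
Summed CPM of marker lists (6 lists, one panel each) in single XY libraries with DMSO, FGFRi and MEKi at 72 h, one point per library labelled with its replicate. The Sertoli sum separates MEKi (822 to 1230) from FGFRi (1700 to 3200), with FGFRi M5 highest, and the macrophage sum is lower with both inhibitors than in most XY DMSO libraries.

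Sertoli genes, the genes of the supporting cells of the testis cords, differed between the inhibitors in 13 of 17 members, all lower with MEKi (median -1.38). They were *Cst9*, *Mro*, *Inhbb*, *Gdnf*, *Aard*, *Dhh*, *Dmrt1*, *Sox8*, *Sox9*, *Cst8*, *Sox10*, *Ptgds* and *Amh*. The other 4 were not called. Without FGFRi M5, 9 were called lower (median -1.13). With all libraries, DESeq2 called 12 lower and voom with treat 4. The summed level was 822, 856, 1230 and 968 CPM with MEKi, 1790, 1700, 3200 and 1790 CPM with FGFRi, 1360, 1740, 1810 and 1070 CPM in XY DMSO (M2, M4, M5 and M6) and 534 to 581 CPM in XX DMSO. The MEKi and FGFRi libraries did not overlap, and XY DMSO lay across the space between them. Against XY DMSO, MEKi called 8 members lower and 2 higher (median -0.65), and FGFRi called 2 higher (median 0.47).

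*Sox9*, the transcription factor that directs Sertoli cell fate, at chr11:112673009-112678586, was at 188, 203, 228 and 214 CPM with MEKi and 344, 323, 488 and 399 CPM with FGFRi (log2 fold change -0.9 ± 0.18, FDR = 0.000538). It was at 253 to 374 CPM in XY DMSO and at 71.5 to 109 CPM in XX DMSO. The lowest FGFRi library thus exceeded the highest MEKi library, and each MEKi library exceeded each XX DMSO library. *Cst9*, a cystatin of Sertoli cells at chr2:148677039-148680659, was at 101, 125, 211 and 197 CPM with MEKi and 488, 437, 995 and 386 CPM with FGFRi (log2 fold change -1.86 ± 0.21, FDR = 9.59e-09), against 9.94 to 19 CPM in XX DMSO. Without FGFRi M5, its highest library, it remained called (log2 fold change -1.46, FDR = 3.14e-07). *Inhbb*, the inhibin and activin beta B subunit, was at 32.8, 34.8, 43.8 and 32.2 CPM with MEKi and 84.9, 86.5, 160 and 86.6 CPM with FGFRi (log2 fold change -1.53 ± 0.2, FDR = 2.44e-07), with 3 FGFRi libraries close together and M5 far above. XX DMSO (72.8 to 111 CPM) overlapped XY DMSO (67.7 to 99.1 CPM) for this gene. *Mro*, maestro, was at 16.1, 30.6, 34.8 and 24.2 CPM with MEKi and 79.1, 71.3, 119 and 83.6 CPM with FGFRi (log2 fold change -1.72 ± 0.22, FDR = 1.78e-07). Here too XX DMSO (60.9 to 78.1 CPM) overlapped XY DMSO (34.6 to 75.2 CPM). *Amh*, anti-Müllerian hormone, was low in all groups, at 1.42, 0, 1.25 and 1.07 CPM with MEKi and 2.89, 4.51, 6.11 and 3.76 CPM with FGFRi (log2 fold change -2.19 ± 0.64, FDR = 0.0182). Its call was lost without FGFRi M5 and without MEKi M3 (log2 fold change -2.44 to -1.77 over the 8 omissions).

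Pre-granulosa genes, those of the supporting cells of the ovary, did not move together. Of 11 members 2 were called higher (*Wnt4* and *Foxl2*) and 2 lower (*Lgr5* and *Kitl*), with a median of -0.06. The shares among all genes tested were 1.65% higher and 4.72% lower. *Wnt4* was at 143, 118, 106 and 133 CPM with MEKi and 91.8, 84.4, 52.5 and 84.9 CPM with FGFRi (log2 fold change 0.68 ± 0.13, FDR = 0.000165), against 133 to 167 CPM in XY DMSO. It was not called without FGFRi M5 (log2 fold change 0.52, FDR = 0.00582). *Foxl2*, the transcription factor that maintains granulosa identity, was at 23.3, 29.8, 23.2 and 32.2 CPM with MEKi and 23.7, 18.4, 10.4 and 13 CPM with FGFRi (log2 fold change 0.76 ± 0.24, FDR = 0.0373), with overlap. This call was lost without FGFRi M5, FGFRi M6, MEKi M3 or MEKi M5 (0.58 to 0.96 over the 8 omissions), in DESeq2 and with total-count scaling, and the XX DMSO level was 188 to 272 CPM. *Rspo1*, *Bmp2* and *Fst* were not called, with log2 fold changes of -0.09 ± 0.12 (FDR = 0.722), 0.4 ± 0.18 (FDR = 0.18) and 0.45 ± 0.25 (FDR = 0.279). The summed level was 360 to 401 CPM with MEKi and 374 to 424 CPM with FGFRi, against 1820 to 2110 CPM in XX DMSO.

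Interstitial progenitor genes, from the cells between the cords that give rise to Leydig cells, were higher with MEKi in 5 of 14 members and lower in 1 (median 0.47, and 5 and 1 without FGFRi M5 with a median of 0.35). *Cxcl12*, a chemokine, was at 522, 489, 503 and 583 CPM with MEKi and 314, 311, 229 and 374 CPM with FGFRi (log2 fold change 0.77 ± 0.12, FDR = 3.69e-06). *Lum*, the matrix proteoglycan lumican, was at 187, 177, 192 and 233 CPM with MEKi and 110, 90.6, 82.3 and 114 CPM with FGFRi (log2 fold change 0.99 ± 0.16, FDR = 1.23e-05). Neither overlapped. *Osr1*, a transcription factor of the urogenital mesenchyme, was at 140, 134, 164 and 182 CPM with MEKi and 99.3, 59.4, 49.2 and 68.6 CPM with FGFRi (log2 fold change 1.18 ± 0.2, FDR = 3.07e-05), and all MEKi libraries exceeded all FGFRi libraries. The transcription factor gene *Maf* was at 283, 258, 211 and 255 CPM with MEKi and 156, 149, 116 and 141 CPM with FGFRi (log2 fold change 0.84 ± 0.14, FDR = 1.64e-05). *Nes*, nestin, which marks perivascular progenitors, was the exception at 73.6, 82.2, 84.8 and 75.2 CPM with MEKi and 178, 169, 163 and 196 CPM with FGFRi (log2 fold change -1.15 ± 0.12, FDR = 1.28e-09). It was called lower in each of the 12 alternatives and the 8 omissions. *Nr2f2* and *Tcf21*, which define this population, were not called (log2 fold change 0.44 ± 0.15, FDR = 0.052 and log2 fold change 0.44 ± 0.14, FDR = 0.0314). Both were below the fold threshold, and only *Tcf21* passed the FDR threshold. The summed level was 4030 to 4990 CPM with MEKi, 2390 to 3770 CPM with FGFRi and 3890 to 4500 CPM in XY DMSO, with FGFRi M5 lowest. The share of Sertoli and interstitial transcripts therefore differed between the inhibitors in opposite directions, and its part in other results was not tested.

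Foetal Leydig genes, for androgen synthesis and its control, were called higher with MEKi in 2 of 14 tested members (median 0.33, from 0.08 without MEKi M4 to 0.5 without MEKi M3). The share called higher among all genes tested was 1.65%. *Prlr*, the prolactin receptor, was at 269, 239, 280 and 282 CPM with MEKi and 132, 152, 84.4 and 128 CPM with FGFRi (log2 fold change 1.11 ± 0.14, FDR = 1.69e-07). Against DMSO the log2 fold change was -0.85 (FDR = 0.000305) for FGFRi and 0.26 (FDR = 0.228) for MEKi. *Lhcgr*, the luteinising hormone receptor, was at 27.1, 24.5, 39.1 and 26.3 CPM with MEKi and 11, 13.5, 18 and 22.6 CPM with FGFRi (log2 fold change 0.84 ± 0.27, FDR = 0.0338). This call was lost without FGFRi M2, FGFRi M4, FGFRi M5 or MEKi M4 (0.65 to 1.03 over the 8 omissions). The steroidogenic enzyme gene *Cyp17a1* was at 56.5, 51.2, 109 and 48.9 CPM with MEKi and 41.6, 51.6, 52.8 and 57.7 CPM with FGFRi, where 109 CPM was MEKi M4 (log2 fold change 0.4 ± 0.25, FDR = 0.35). *Insl3* was not tested. Genes of cholesterol and fatty acid synthesis were called higher in 3 of 23 members (median 0.25). The 3 were the mevalonate pathway enzyme genes *Mvk*, *Mvd* and *Fdps*. *Mvk* was at 69.3, 73.8, 66.1 and 67.7 CPM with MEKi and 32.3, 38.9, 29.1 and 39.3 CPM with FGFRi (log2 fold change 0.99 ± 0.14, FDR = 4.62e-07), without overlap. *Mvd* (log2 fold change 1 ± 0.18, FDR = 7.59e-05) did not overlap either. For *Fdps* (log2 fold change 0.68 ± 0.2, FDR = 0.0204) the lowest MEKi and the highest FGFRi library were both at 24.2 CPM, and it lost its call without FGFRi M5, FGFRi M6, MEKi M3 or MEKi M4 (0.57 to 0.79 over the 8 omissions).

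**Figure D4:**
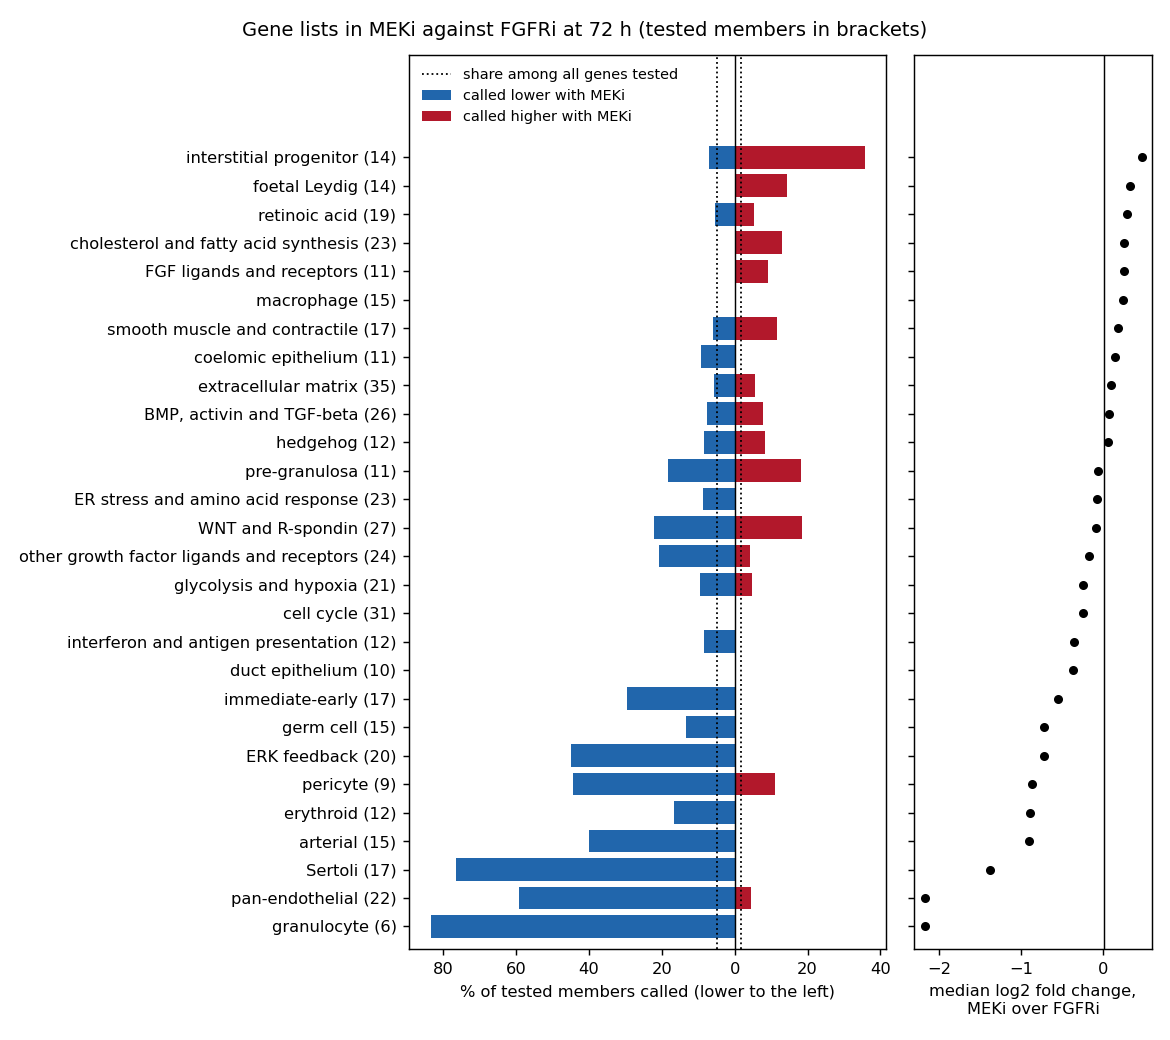
Share of tested members called higher (right) or lower (left) with MEKi than with FGFRi for the 28 gene lists, with the shares among all genes tested as dotted lines (left panel), and the median log2 fold change of each list (right panel). Granulocyte, pan-endothelial and Sertoli lists lie lowest, at medians of -2.18, -2.17 and -1.38, and the interstitial progenitor list lies highest at 0.47.

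The WNT pathway changed in both directions. Of 27 tested ligands, receptors, inhibitors and targets, 5 were called higher and 6 lower (median -0.09), and without FGFRi M5, 4 higher and 3 lower. Among ligands, *Wnt6* was lower at 41.8, 50.1, 51 and 38.1 CPM with MEKi and 111, 111, 190 and 124 CPM with FGFRi (log2 fold change -1.56 ± 0.16, FDR = 5.63e-10) and *Wnt4* higher, as given above. *Lgr5*, an R-spondin receptor and WNT target at chr10:115286216-115423685, was at 0, 0, 2.82 and 0 CPM with MEKi and 11.6, 13.1, 25.5 and 16.3 CPM with FGFRi (log2 fold change -4.15 ± 0.52, FDR = 5.96e-08), so that only MEKi M4 held any count. Its XX DMSO level was 47.7 to 60.2 CPM against 5.21 to 15.9 CPM in XY DMSO. Among targets, *Sp5* was at 8.07, 2.68, 4.38 and 1.07 CPM with MEKi and 6.35, 11.1, 18.3 and 11.7 CPM with FGFRi (log2 fold change -1.57 ± 0.33, FDR = 0.000911), with overlap, and *Tcf7* and *Lef1* were also called lower.

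Of the secreted WNT inhibitors called, 4 were higher and 1 was lower. *Dkk1*, which blocks the LRP co-receptors, was at 16.6, 22.6, 17.9 and 16.6 CPM with MEKi and 3.46, 6.15, 5.39 and 2.09 CPM with FGFRi (log2 fold change 2.07 ± 0.33, FDR = 1.12e-05), without overlap. *Sfrp1*, a secreted decoy, was at 435, 413, 392 and 398 CPM with MEKi and 245, 281, 224 and 260 CPM with FGFRi (log2 fold change 0.7 ± 0.1, FDR = 3.87e-06). Here the FGFRi libraries lay below XY DMSO (370 to 424 CPM) while MEKi overlapped it. *Sfrp2* (log2 fold change 0.65 ± 0.19, FDR = 0.0184) and *Sfrp4* were the other higher genes. *Sfrp2* lost its call without FGFRi M4, MEKi M4 or MEKi M5 (0.55 to 0.74 over the 8 omissions). *Wif1* was the inhibitor that was lower, at 0.475, 0.382, 0.939 and 1.07 CPM with MEKi and 2.89, 4.92, 7.18 and 1.67 CPM with FGFRi (log2 fold change -2.5 ± 0.66, FDR = 0.00865). It was not called without FGFRi M5 (log2 fold change -2.08, FDR = 0.0848).

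Of 12 hedgehog genes, *Dhh* was called lower and *Boc* higher (median 0.06), where 4.72% of all genes tested were called lower and 1.65% higher. *Dhh*, the Sertoli cell ligand that acts on interstitial cells, was at 28.9, 31.7, 41.3 and 35.5 CPM with MEKi and 61.8, 79.9, 132 and 84.9 CPM with FGFRi (log2 fold change -1.38 ± 0.23, FDR = 2.12e-05), and remained called without FGFRi M5 (log2 fold change -1.13, FDR = 0.00106). *Ptch1*, its receptor and transcriptional target, was at 108, 126, 114 and 121 CPM with MEKi and 180, 199, 94.8 and 135 CPM with FGFRi and did not pass (log2 fold change -0.37 ± 0.15, FDR = 0.124). *Boc*, a co-receptor, was at 70.7, 52.8, 65.1 and 69.3 CPM with MEKi and 46.2, 50.4, 30.2 and 43.9 CPM with FGFRi (log2 fold change 0.6 ± 0.15, FDR = 0.00438). The call of *Boc* was lost without FGFRi M5, MEKi M2 or MEKi M5 (0.45 to 0.7 over the 8 omissions). Of 19 tested retinoic acid genes 1 was called lower and 1 higher (median 0.29), beside the same shares of 4.72% and 1.65%. *Cyp26b1*, which degrades retinoic acid in the foetal testis, was at 14.2, 16.4, 11 and 10.2 CPM with MEKi and 21.4, 38.9, 39.2 and 25.9 CPM with FGFRi (log2 fold change -1.29 ± 0.22, FDR = 2.59e-05), against 31.3 to 42.8 CPM in XY DMSO. *Stra6*, a retinol transporter, was at 29.4, 29.1, 34.1 and 34.4 CPM with MEKi and 15, 18.9, 22.6 and 18.8 CPM with FGFRi (log2 fold change 0.74 ± 0.22, FDR = 0.02). This call did not hold without FGFRi M2, MEKi M4 or MEKi M5 (0.66 to 0.84 over the 8 omissions). *Aldh1a2*, which makes retinoic acid, was at 101, 105, 103 and 76.3 CPM with MEKi and 76.2, 73.8, 77.2 and 74.9 CPM with FGFRi (log2 fold change 0.36 ± 0.14, FDR = 0.0927).

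Among 26 tested BMP, activin and TGF-beta genes, *Tgfb2* and *Id2* were called higher and *Inhbb* and *Amhr2* lower (median 0.07, and -0.07 without MEKi M4). Over all genes tested, 1.65% were called higher and 4.72% lower. *Tgfb2* was at 305, 266, 279 and 282 CPM with MEKi and 195, 188, 194 and 177 CPM with FGFRi (log2 fold change 0.59 ± 0.1, FDR = 2.59e-05), just past the fold threshold. It lost its call in 10 of 12 alternatives and without FGFRi M6 or MEKi M2 (0.55 to 0.61 over the 8 omissions). *Id2*, a BMP target, overlapped (log2 fold change 0.64 ± 0.16, FDR = 0.00482) and was not called without FGFRi M5 or MEKi M2 (0.56 to 0.76 over the 8 omissions). *Amhr2*, the AMH receptor, was at 92.5, 81.4, 140 and 76.3 CPM with MEKi and 127, 189, 219 and 160 CPM with FGFRi (log2 fold change -0.82 ± 0.16, FDR = 0.000197), with overlap. *Inhba*, the other activin subunit, was at 330, 372, 472 and 423 CPM with MEKi and 313, 271, 249 and 285 CPM with FGFRi without overlap but under the fold threshold (log2 fold change 0.52 ± 0.15, FDR = 0.017).

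Of 35 tested extracellular matrix genes 2 were called higher and 2 lower (median 0.1). Over all genes tested, 1.65% were called higher and 4.72% lower, so these counts are near the general share. The 2 lower genes encode the main collagens of basement membranes and lie head to head. *Col4a1* at chr8:11248423-11362826 was at 284, 320, 296 and 281 CPM with MEKi and 659, 654, 434 and 476 CPM with FGFRi (log2 fold change -0.91 ± 0.12, FDR = 1.39e-07). *Col4a2* at chr8:11362471-11499287 was at 258, 206, 265 and 247 CPM with MEKi and 447, 522, 387 and 413 CPM with FGFRi (log2 fold change -0.86 ± 0.1, FDR = 4.6e-08). Neither overlapped, and the FGFRi levels lay around those of XY DMSO (514 to 628 CPM and 440 to 502 CPM). *Nid2*, a nidogen of the same structure, was higher at 232, 201, 304 and 220 CPM with MEKi and 141, 155, 103 and 175 CPM with FGFRi (log2 fold change 0.74 ± 0.15, FDR = 0.000387). *Efemp1*, fibulin 3, was higher at 54.6, 68.8, 85.5 and 81.7 CPM with MEKi and 33.5, 36.5, 33.4 and 29.7 CPM with FGFRi (log2 fold change 1.13 ± 0.23, FDR = 0.000555), against 12.4 to 23.9 CPM in XY DMSO. *Col1a1* and *Lama1* were not called (log2 fold change 0.49 ± 0.12, FDR = 0.00566 and log2 fold change 0.02 ± 0.17, FDR = 0.962).

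Of 31 cell cycle genes 0 were called by edgeR, DESeq2 or voom with treat (median -0.25). By edgeR, 1.65% of all genes tested were called higher and 4.72% lower. At an unadjusted p below 0.05, 1 member was higher and 13 were lower. The share of all genes at that p was not counted. Between 0 and 2 were called lower over the 8 omissions, 2 without MEKi M3 and 1 each without FGFRi M2, FGFRi M4, FGFRi M6 and MEKi M4. The proliferation marker *Mki67* was at 188, 230, 194 and 192 CPM with MEKi and 276, 280, 311 and 264 CPM with FGFRi (log2 fold change -0.49 ± 0.14, FDR = 0.0147). The topoisomerase gene *Top2a* was at 421, 468, 372 and 382 CPM with MEKi and 501, 502, 639 and 472 CPM with FGFRi (log2 fold change -0.36 ± 0.09, FDR = 0.00755). Neither overlapped, and both differences were below 1.5-fold. Summed, the list was at 3570 to 3960 CPM with MEKi and 4260 to 5250 CPM with FGFRi, the latter highest in M5, and 4390 to 4770 CPM in XY DMSO.

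The remaining lists had few calls, beside shares of 1.65% called higher and 4.72% called lower among all genes tested. In glycolysis and hypoxia (21 tested, median -0.24) the collagen hydroxylase gene *P4ha2* was higher at 75, 70.3, 115 and 70.4 CPM with MEKi and 28.9, 50.8, 46 and 59.4 CPM with FGFRi (log2 fold change 0.83 ± 0.2, FDR = 0.00303). Hexokinase 2 (*Hk2*) was lower at 53.2, 60.8, 70.8 and 54.2 CPM with MEKi and 124, 115, 179 and 129 CPM with FGFRi (log2 fold change -1.19 ± 0.14, FDR = 1.79e-08). *Ero1a* was lower (log2 fold change -0.67 ± 0.21, FDR = 0.0327), but was called in 3 of the 8 omissions only, those without FGFRi M2, FGFRi M6 and MEKi M2 (-0.87 to -0.56 over the 8). Of 23 tested ER stress and amino acid response genes, *Asns* (log2 fold change -0.94 ± 0.18, FDR = 0.000166) and *Derl3* (log2 fold change -1.08 ± 0.28, FDR = 0.00823) were lower. *Derl3* was not called without FGFRi M5 (log2 fold change -0.82, FDR = 0.112). The chaperone gene *Hspa5* was not called (log2 fold change -0.09 ± 0.09, FDR = 0.599). Of 12 interferon and antigen presentation genes *Rtp4* was lower at 0.949, 1.53, 2.5 and 2.69 CPM with MEKi and 6.35, 5.33, 7.18 and 8.78 CPM with FGFRi (log2 fold change -1.82 ± 0.44, FDR = 0.00386). A second gene was called lower without FGFRi M4, FGFRi M6 or MEKi M5. Of 11 tested coelomic epithelium genes *Krt18* was lower at 56, 48.2, 36 and 35.5 CPM with MEKi and 83.7, 70.5, 62.5 and 73.6 CPM with FGFRi (log2 fold change -0.72 ± 0.17, FDR = 0.00238). Another gene was called higher without FGFRi M4, FGFRi M6, MEKi M3 or MEKi M5.

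Of 10 tested duct epithelium genes, which check for remaining mesonephros, 0 were called by edgeR, DESeq2 or voom with treat, and 0 were higher and 3 lower at an unadjusted p below 0.05. Their median was -0.37, and -0.03 without FGFRi M5, and 1 was called lower without FGFRi M6 or MEKi M4. Of the defining germ cell genes, *Ddx4* was at 1.42, 1.91, 1.25 and 2.15 CPM with MEKi and 0.577, 2.05, 4.67 and 3.76 CPM with FGFRi (log2 fold change -0.81 ± 0.59, FDR = 0.444). *Dazl*, which encodes an RNA-binding protein of germ cells, was at 10.4, 10.3, 5.01 and 4.3 CPM with MEKi and 4.62, 17.6, 18 and 7.11 CPM with FGFRi (log2 fold change -0.72 ± 0.37, FDR = 0.235), and neither was called. Of 15 tested germ cell genes *Smc1b* and *Sycp1*, which function in meiosis, were called lower (median -0.72). *Smc1b* was at 5.22, 6.88, 7.2 and 6.45 CPM with MEKi and 13.9, 15.6, 19 and 14.2 CPM with FGFRi (log2 fold change -1.27 ± 0.34, FDR = 0.00981). *Sycp1* was at 1.9, 2.29, 1.25 and 1.61 CPM with MEKi and 2.31, 7.38, 8.62 and 2.93 CPM with FGFRi (log2 fold change -1.64 ± 0.5, FDR = 0.0259). Neither was called without FGFRi M5 (log2 fold change -1.16, FDR = 0.0563 and log2 fold change -1.3, FDR = 0.181), and *Sycp1* also lost its call without FGFRi M4, MEKi M4 or MEKi M5. *Pou5f1*, *Nanog*, *Nanos2*, *Dnmt3l* and *Tfap2c* were too low to be tested.

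The 10 largest increases, among called genes whose groups did not overlap and whose mean level reached 5 CPM, were *Dcx*, *Angptl7*, *Dkk1*, *Hapln1*, *Npy1r*, *Lrrtm4*, *Ndp*, *Adra1a*, *Ren1* and *Spon2*. *Angptl7*, a secreted angiopoietin-like protein at chr4:148579639-148584923, was at 46.5, 47.4, 35.7 and 48.3 CPM with MEKi and 6.35, 4.51, 18.7 and 5.44 CPM with FGFRi (log2 fold change 2.28 ± 0.33, FDR = 1.81e-06), against 15.9 to 23.4 CPM in XY DMSO, a range that held FGFRi M5 and lay above the other 3 FGFRi and below all MEKi libraries. Without FGFRi M5, its highest FGFRi library, it remained called (log2 fold change 3.04, FDR = 4.17e-08). *Npy1r*, a neuropeptide Y receptor, was at 30.4, 36.3, 29.7 and 37.6 CPM with MEKi and 12.1, 5.74, 9.34 and 7.53 CPM with FGFRi (log2 fold change 1.96 ± 0.36, FDR = 0.000128). The FGFRi libraries lay among those of XY DMSO (3.98 to 15 CPM). *Hapln1*, which links hyaluronan to proteoglycans, was at 9.97, 13.4, 5.01 and 12.3 CPM with MEKi and 1.73, 3.69, 2.15 and 2.09 CPM with FGFRi (log2 fold change 2.01 ± 0.43, FDR = 0.000978). *Lrrtm4*, a synaptic adhesion protein, was at 27.5, 22.9, 16.6 and 27.4 CPM with MEKi and 5.77, 6.97, 4.67 and 8.36 CPM with FGFRi (log2 fold change 1.86 ± 0.35, FDR = 0.00017). *Dcx*, doublecortin, a microtubule protein of young neurons, was at 5.22, 12.2, 9.39 and 10.7 CPM with MEKi and 1.73, 4.51, 0 and 0.836 CPM with FGFRi (log2 fold change 2.41 ± 0.64, FDR = 0.00859). *Adra1a*, an adrenergic receptor, was at 9.97, 8.79, 8.77 and 10.7 CPM with MEKi and 2.89, 2.05, 2.15 and 4.6 CPM with FGFRi (log2 fold change 1.7 ± 0.47, FDR = 0.0122). Both lost their call without FGFRi M5 (log2 fold change 1.94, FDR = 0.0639 and log2 fold change 1.56, FDR = 0.0638). *Ndp*, norrin, a ligand of the receptor FZD4, was at 12.3, 4.59, 10.3 and 15.6 CPM with MEKi and 3.46, 2.05, 3.59 and 2.51 CPM with FGFRi (log2 fold change 1.85 ± 0.5, FDR = 0.0113). It lost its call without MEKi M5 (log2 fold change 1.63).

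Among the 10 largest decreases, by the same limits of no overlap and a mean of 5 CPM, the endothelial genes *Gpihbp1* and *Cd93*, and *Nrarp*, *Lgr5* and *Elane* were described above. *Fabp4*, a fatty acid binding protein of capillaries and adipocytes, was at 1.42, 0.765, 1.25 and 0 CPM with MEKi and 11.6, 5.33, 16.5 and 7.53 CPM with FGFRi (log2 fold change -3.42 ± 0.58, FDR = 2.75e-05), against 8.05 to 31.9 CPM in XY DMSO. The other 4 were low in XX DMSO. *Lrp8*, a receptor for reelin and apolipoprotein E at chr4:107659066-107734038, was at 2.37, 4.21, 4.7 and 0.537 CPM with MEKi and 40.4, 33.6, 53.9 and 35.5 CPM with FGFRi (log2 fold change -3.66 ± 0.32, FDR = 1.4e-11). It was at 25.6 to 35.9 CPM in XY DMSO and at 0.588 to 4.21 CPM in XX DMSO. *Bricd5* was at 3.32, 3.06, 5.01 and 0 CPM with MEKi and 21.9, 26.2, 48.5 and 25.5 CPM with FGFRi (log2 fold change -3.3 ± 0.34, FDR = 1.01e-09), with XX DMSO at 0.523 to 2.38 CPM. *Glb1l3*, a beta-galactosidase-like gene, was at 0.475, 2.29, 1.88 and 0.537 CPM with MEKi and 16.7, 17.6, 30.9 and 18.4 CPM with FGFRi (log2 fold change -3.86 ± 0.45, FDR = 1.48e-08), with XX DMSO at 0.588 to 2.09 CPM. *Elovl3*, a fatty acid elongase, was at 0, 0, 1.56 and 1.61 CPM with MEKi and 5.2, 11.9, 15.4 and 9.2 CPM with FGFRi (log2 fold change -3.63 ± 0.65, FDR = 0.000104), and no XX DMSO library had a count. For these 4 genes the FGFRi libraries lay within or above the XY DMSO range, and the MEKi libraries lay below it.

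The 24 h libraries of MEKi and DMSO share no sample with the 72 h comparison and belong to another set, so they show the same inhibitor in other samples, against another control and at another time. Of the 727 genes that were lower with MEKi than with FGFRi at 72 h, 83 (11.4%) were called lower and 18 (2.48%) higher with MEKi than with DMSO at 24 h, where 1.47% and 0.955% of all genes were called. Of the 254 higher genes, 13 (5.12%) were called higher and 3 (1.18%) lower. The median log2 fold changes at 24 h were -0.06 and 0.03, so most of the genes showed no comparable difference at 24 h. By list, 10 of 20 ERK feedback genes (median -0.87), 19 of 22 pan-endothelial genes (median -2.13), 11 of 15 arterial genes (median -1.42) and 6 of 9 pericyte genes were called lower at 24 h. In the pericyte list 1 member was called higher. Other lists did not recur, with 0 of 6 granulocyte genes called (median -0.57). Of 14 interstitial progenitor genes 0 were called higher and 1 lower (median -0.06).

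The Sertoli list had 0 members called lower and 2 higher at 24 h (median 0.3). Against DMSO at 72 h, 8 were lower and 2 higher with MEKi (median -0.65), and the difference between the times was not tested. At 24 h, DESeq2 called 0 lower and 1 higher, voom with treat called 0 in either direction, and 1 lower and 6 higher had an unadjusted p below 0.05 in edgeR. *Sox9* had a log2 fold change of 0.3, FDR = 0.569 at 24 h, *Cst9* -0.36, FDR = 0.552, *Mro* -0.02, FDR = 0.986 and *Inhbb* 0.08, FDR = 0.933, none of them called. *Wnt6* (0.04, FDR = 0.953) and *Lgr5* (-0.89, FDR = 0.348) were not called either. *Dusp6* (-1.87, FDR = 1.88e-07), *Gpihbp1* (-2.95, FDR = 8.35e-06), *Cd93* (-2.69, FDR = 8.13e-08), *Lrp8* (-1.83, FDR = 0.00146) and *Bricd5* (-1.98, FDR = 0.00038) were called lower at 24 h. *Cd34* was called lower at 24 h (-1.75, FDR = 1.62e-06) and was not called against DMSO at 72 h (0.38 (FDR = 0.129)). The meiotic genes *Smc1b* (2.01, FDR = 1.88e-07) and *Sycp1* (2.29, FDR = 2.38e-05) were called higher at 24 h, as were 7 of 15 germ cell genes in all (median 1.32). Against DMSO at 72 h, MEKi gave 0.53 (FDR = 0.457) for *Smc1b* and 0.51 (FDR = 0.669) for *Sycp1*, neither called, and a list median of 0.29. FGFRi called 2 of the 15 higher than DMSO at 72 h (median 0.76).

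**Figure D5:**
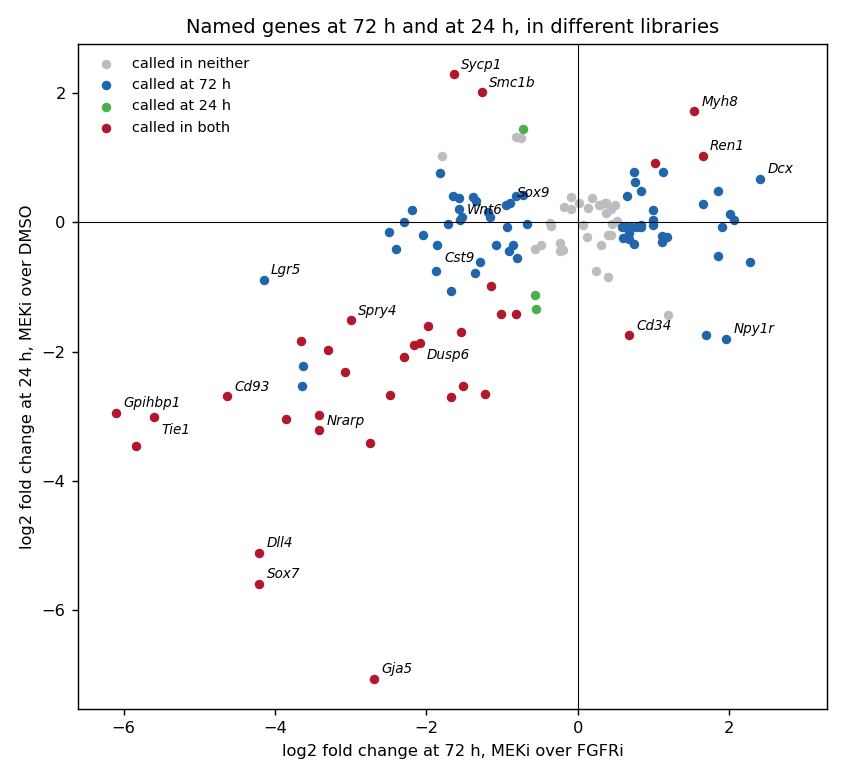
Log2 fold change of MEKi over DMSO at 24 h (y axis) against that of MEKi over FGFRi at 72 h (x axis) for the named genes, coloured by where they were called. Endothelial and ERK feedback genes such as *Tie1*, *Cd93* and *Spry4* lie low on both axes, while *Cst9*, *Wnt6* and *Sox9* lie near 0 at 24 h.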

How the data were processed

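Somatic cells of several pooled gonads per sample were profiled by RNA-seq with poly(A) priming and template switching. The authors deposited raw counts per gene and library, made with scPipe and Rsubread against GRCm39. Replicates were not pooled. Counts of unique molecules and use of the strand are described for the germ cell libraries and are not given in the sources used here for the somatic ones. The submitters' processing notes name limma, edgeR and GRCm39. Of 42422 gene identifiers 40391 matched GENCODE M39, and these held 99% of counts. One count column (1) that the labels do not name was not used.

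Differential expression was tested with edgeR 4.0.16 (R 4.3.3) on the 39 labelled libraries in 10 groups, with filterByExpr (15390 genes), TMM scaling and the quasi-likelihood F test. FDR is the Benjamini-Hochberg adjusted p over all genes tested, two-sided, and SE is the estimate divided by the square root of F. List counts at an unadjusted p below 0.05 come from the same F test, for which the share of all genes at that p was not counted. CPM use TMM-scaled totals. Intervals cover counting error only. Ratios to the floor of 3 counts leave out the counting error of the FGFRi counts. Depth, 1754343 to 3167747 counts for the 12 XY libraries of 72 h, limits genes of a few CPM. Sources do not say whether pools came from separate litters, so p-values measure the spread between pools. The script was tested on simulated counts. The authors' own test, voom with quality weights and treat (limma 3.58.1), and DESeq2 1.42.0 were alternatives, with other scalings, filters, sample sets, a replicate block and omission of each library.

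The members, 28 gene lists and tests were chosen with earlier results of these data known. Named genes are the 10 largest increases and decreases among called genes whose groups did not overlap and whose mean reached 5 CPM, the first 2 genes of each list with up to 4 called members per direction, *Foxl2*, *Rspo1*, *Bmp2*, *Wnt4*, *Fst* and *Cyp26b1*, and *Xist* and *Ddx3y*. A few genes that this rule names are not reported here. Same-numbered libraries were not paired: MEKi and FGFRi deviations from their group means correlated at 0.0177 (M2), 0.0742 (M4) and -0.11 (M5). With DMSO, same-numbered libraries correlated at -0.1 to 0.161 for MEKi and at -0.00895 to 0.146 for FGFRi. Differently numbered MEKi and FGFRi libraries correlated at -0.288 to 0.276. Promoter windows are from RefSeq (GRCm38.p6).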

Additional observations from a re-analysis of the deposited data

Results flagged for a closer look

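In groups of 4 libraries at 72 h, 23 of 267 groups tested over the named genes held a library far from the other 3, by the gap to its nearest neighbour relative to the range of the group. Chance gives about 1 in 20 groups where values are normally distributed, and no explanation was weighed. A group with counts in a single library is always flagged, as for *Lgr5*, *Tie1*, *Gja5*, *Dll4* and *Sox7* with MEKi. The 23 therefore cannot be set directly against 1 in 20.

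With FGFRi, 7 of the 10 were FGFRi M5. It held 995 CPM of *Cst9* (386 to 488 in the other 3), 160 CPM of *Inhbb* (84.9 to 86.6), 190 CPM of *Wnt6* (111 to 124), 48.5 CPM of *Bricd5* (21.9 to 26.2), 30.9 CPM of *Glb1l3* (16.7 to 18.4), 18.7 CPM of *Angptl7* (4.51 to 6.35) and 734 CPM of *Egr1* (941 to 983). For *Cst9*, *Inhbb*, *Wnt6*, *Bricd5* and *Glb1l3* this library lay on the side away from MEKi, and for *Angptl7* and *Egr1* on the side towards it. FGFRi M4 held 1300 CPM of *Fos* (1060 to 1100) and 18.9 CPM of *Myh8* (5.77 to 7.18), and FGFRi M2 held 25.4 CPM of *Spry4* (12.7 to 13.7).

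With MEKi, M4 was the library in 7 of 13. It held 35.7 CPM of *Angptl7* (46.5 to 48.3 in the other 3), 2.82 CPM of *Lgr5* (0 in the other 3), 0.313 CPM of *Tie1* (0), 109 CPM of *Cyp17a1* (48.9 to 56.5), 25.1 CPM of *Vegfa* (53.2 to 55.8), 115 CPM of *P4ha2* (70.3 to 75) and 8.45 CPM of *Derl3* (5.7 to 6.12). MEKi M3 held 0.765 CPM of *Gja5* (0), 0.382 CPM of *Dll4* (0) and 230 CPM of *Mki67* (188 to 194). MEKi M5 held 4.3 CPM of *Etv5* (9.02 to 9.56) and 76.3 CPM of *Aldh1a2* (101 to 105), and MEKi M2 held 0.949 CPM of *Sox7* (0). The values for *Tie1*, *Gja5*, *Dll4* and *Sox7* rest on 1 or 2 counts.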

How the results depend on the processing

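Main numbers of called genes were 981 for MEKi against FGFRi, 992 for MEKi against DMSO and 276 for FGFRi against DMSO at 72 h, and 373 for MEKi against DMSO at 24 h. They fell to 213, 136, 6 and 130 with glmTreat, which tests against the 1.5-fold threshold itself, and to 93, 78, 0 and 47 with voom, quality weights and treat. For FGFRi against DMSO, DESeq2 called 292 and the voom test gave 178 at an unadjusted p below 0.05. Leaving out 1 library gave 599 (without FGFRi M5) to 1022 for MEKi against FGFRi, 90 to 361 for FGFRi against DMSO and 238 to 385 for MEKi against DMSO at 24 h. Without FGFRi M5, MEKi M4 and DMSO M6, which stand apart, the numbers were 512 for MEKi against FGFRi and 69 for FGFRi against DMSO; this alternative and the fit of the 12 XY libraries alone (1007 for MEKi against FGFRi) were chosen after seeing the data. Other scalings, filters, DESeq2 and sample sets gave 934 to 1014 for MEKi against FGFRi, with 213 higher and 791 lower on total counts. With the replicate block, a pairing that the labels do not state, the number for MEKi against FGFRi was 942, of which 776 were among the 981. Of the named genes, the sign changed in at least 1 alternative or omission for 6, none of them called. Over the omitted libraries the log2 fold changes were -0.38 to 0.04 for *Fgf9*, 0 to 0.3 for *Myh11*, -0.06 to 0.99 for *Csf1r*, -0.03 to 0.1 for *Lama1*, -0.06 to 0.3 for *Vegfa* and -1.16 to 0.35 for *Ifit1*. With the replicate block they were 0.13 for *Fgf9*, -0.01 for *Csf1r* and -0.09 for *Vegfa*. *Myh11* was at -0.16 without the 3 libraries, *Ifit1* at 0.26 in the voom test and *Lama1* at 0 on total counts. Of 136 named genes 99 were called, 78 of them in each of the 8 omissions, 83 without FGFRi M5, and 30 in all 12 alternatives and 8 omissions. The causes were not tested.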
